A study of Mus musculus with 8 samples.

Results

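The transcriptome described here is that of Min6 cells transfected with a control plasmid. Min6 is an established mouse insulinoma line, grown from beta cell tumours of mice that carried a viral T antigen under an insulin promoter. The members are the 4 libraries, of 8 in the study, whose plasmid label is pRK5-NLSeGFP, which encodes a green fluorescent protein with a nuclear localisation signal. The cells were transfected with Lipofectamine, total RNA was taken 16 h later, and libraries were made with a stranded kit for polyadenylated RNA. The other 4 libraries came from cells given pRK5-Zac1 in a search for targets of the transcription factor Zac1, and they were not used here. The control libraries carry the replicate numbers 1, 2, 3 and 5, and every list of 4 values below follows that order. The series calls them biological replicates and says nothing further of separate cultures, so the spread between them may be partly technical. Untransfected cells were not analysed here, so transfection is common to all the libraries, and the share of cells that took up the plasmid is not given in the sources used here.

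A beta cell makes insulin as a precursor, cuts it in dense core granules with prohormone convertases and carboxypeptidase E, and stores it with amylin and granins. Glucose enters through a transporter and is phosphorylated and oxidised, the rise in ATP closes ATP-sensitive potassium channels, and calcium entry through voltage-gated channels triggers fusion of granules with the plasma membrane. A set of transcription factors, among them Pdx1, Nkx6-1, Neurod1, Pax6, Isl1 and Mafa, keeps this programme on, while mature beta cells keep some widely expressed metabolic genes low. An insulinoma line combines that programme with continuous division.

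Levels are given as CPM, counts scaled to a library total of 1000000 after TMM adjustment of the totals, as mean ± SD over the 4 libraries. A gene is called silent below a mean of 0.1 CPM, low from 0.1 to below 1 CPM and expressed from 1 CPM. CPM rises with transcript length, so a ranking by CPM orders genes by their share of counts and not by their number of transcripts. Levels of different genes are set against each other as length-scaled levels, which are counts divided by the exonic length of the gene and scaled to a sum of 1000000 (TPM). The libraries held 34671799, 35022857, 32406700 and 30548923 counts, and 17554, 17569, 17542 and 17461 genes had at least 1 count. A mean of 0.1 CPM stood for 13.3 counts over the 4 libraries. A gene with 0 counts in all of them could have a level of up to 0.0226 CPM, the limit that 3 counts over the group set, which covers counting error only. Replicates 1 and 5 lay farther from the other libraries than replicates 2 and 3 did. Among the 9268 genes at 10 CPM or more, 41, 2, 6 and 62 genes lay beyond 1.5-fold of the mean of the other 3 libraries in replicates 1, 2, 3 and 5. For 56 of the 62 in replicate 5, the value was lower there.

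The counts were spread over many genes, with 3 islet peptide genes far above the rest. Of the 23100 genes of the table, 12529 (54.2%) were expressed, 2977 (12.9%) were low and 7594 (32.9%) were silent, among them 3974 (17.2%) with 0 counts in all 4 libraries. The silent genes together held 0.0123% of the counts. The 917 most counted genes held 50% of the pooled counts, and taken library by library that number was 892, 934, 902 and 933. Genes at 1000 CPM or more numbered 64 and held 17.7% of the counts, and genes at 100 CPM or more numbered 2390 and held 70.9%. The median level of an expressed gene was 29.6 CPM. Of all genes, 1731 were below 0.1 CPM in some libraries and at or above it in others, so membership of the silent band at its edge depended on the library.

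**Figure D1:**
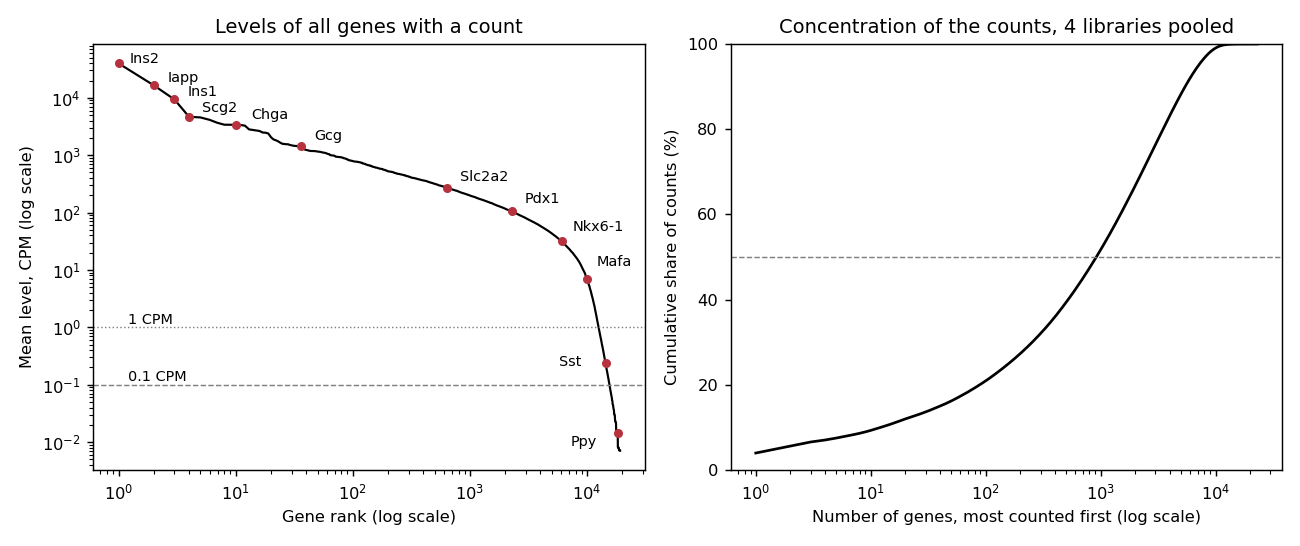
Left, mean level of every gene with at least 1 count, in CPM, against its rank, both on log scales, with islet genes marked by red points and the lines at 1 and 0.1 CPM drawn. Right, cumulative share of the pooled counts against the number of genes, most counted first, on a log scale; the curve starts with Ins2 at the far left and reaches 50% at 917 genes.

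The most counted genes were led by those of the insulin granule, and many of the others serve protein folding. Ins2, the insulin gene shared with other mammals, led the ranking at 39884 ± 6519 CPM, followed by Iapp, which encodes amylin, at 16511 ± 1004 CPM, and Ins1, the rodent insulin retrogene, at 9364 ± 1338 CPM. The granins Scg2 (4666 ± 243 CPM), Chgb (3394 ± 186 CPM) and Chga (3384 ± 411 CPM) were among the 10 highest. So were the translation elongation factor Eef1a1 (4554 ± 269 CPM), the citrate-cleaving enzyme Acly (4129 ± 163 CPM), the calcium pump of the endoplasmic reticulum Atp2a2 (3663 ± 167 CPM) and the cytosolic chaperone Hsp90ab1 (3399 ± 123 CPM). The 25 highest, unnamed gene models passed over, also held the prohormone convertase Pcsk2, the carboxypeptidase Cpe, the nuclear noncoding RNA Malat1, the RNA-binding protein gene Hnrnpa2b1, the pyruvate kinase gene Pkm2, the intermediate filament gene Nefm and the desaturase Scd2. Chaperones and folding enzymes made up 8 more of them: Hsp90b1, Hspa8, Hsp90aa1, Hspa5, Ero1lb, Calr, Canx and P4hb. Scaled by length, 13 of the same 25 remained among the 25 highest. Ins2 (79123 TPM), Iapp (51377 TPM) and Ins1 (22961 TPM) kept the first places, ahead of Eef1a1 at 6632 TPM. The short mRNAs of ribosomal proteins and of the neuropeptide Npy (3517 TPM) moved up on that scale. Reads of Eef1a1, and of other genes with near-identical processed copies, could be split by counting, so those levels are uncertain.

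Insulin mRNA took 5.23, 5.17, 5.47 and 3.82% of all counts, Ins1 and Ins2 together, a mean of 4.92 ± 0.746% (SD, n = 4). Ins2 was at 41984, 41425, 45616 and 30512 CPM. It was lowest in replicate 5, and its CV, the SD as a share of the mean, was 16.3%. Ins1 was at 10790.5, 9655, 9449 and 7562 CPM, again lowest in replicate 5. Iapp was at 17363, 15213, 16226 and 17241 CPM and varied less, with a CV of 6.08%. Its highest and lowest values were in replicates 1 and 2, so the low insulin of replicate 5 was not shared by Iapp. The ratio of Ins2 to Ins1, per unit of length, was 3.45 ± 0.334 and ranged from 3.15 to 3.91. The coding parts of Ins1 and Ins2 are much alike, so reads that match both could be lost or misplaced in counting, and this ratio is uncertain to that extent. The ratio of Ins2 to Iapp, per unit of length, was 1.55 ± 0.302.

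Of the other islet hormones, Gcg was well expressed, Ghrl and Sst were in the low band, and Ppy and Pyy were silent. Gcg, the proglucagon gene of alpha cells, was at 1232, 1399, 1388 and 1672 CPM, a mean of 1423 ± 183 CPM, highest in replicate 5 and lowest in replicate 1. Its length-scaled level, 3422 ± 535 TPM, was rank 11 of all genes, and Ins2 exceeded it 23.8 ± 5.99-fold on that scale, with a range of 15.1 to 28.3. Ghrl, the ghrelin gene of epsilon cells, was at 0.204, 0.536, 0.435 and 0.424 CPM, which is in the low band throughout. Sst, the somatostatin gene of delta cells, was at 0.0291, 0.339, 0.311 and 0.261 CPM, below 0.1 CPM in replicate 1 and above it in the others. Ppy, the pancreatic polypeptide gene, had 2 counts, all in replicate 2, and Pyy, for peptide YY, had 0 counts.

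The sequences just upstream of these hormone genes are shown because the genes range from among the most abundant mRNAs of the cells to silence. RefSeq windows on GRCm38.p6 were found for 5 of the 6 hormone genes looked up, Ins2 having no entry. Each is the 250 bases before the annotated start, written 5′ to 3′ on the strand of the gene, with the E-box CATCTG or its reverse complement CAGATG in capitals. E-boxes of this kind are known binding sites of Neurod1 and its partners, and TAAT is the core recognised by homeodomain proteins such as Pdx1. The windows are chr19:52264047-52264296 on the plus strand for Ins1, chr6:142298175-142298424 on the plus strand for Iapp, chr2:62483654-62483903 on the minus strand for Gcg, chr16:23890845-23891094 on the minus strand for Sst and chr11:102101320-102101569 on the minus strand for Ppy.
Ins1: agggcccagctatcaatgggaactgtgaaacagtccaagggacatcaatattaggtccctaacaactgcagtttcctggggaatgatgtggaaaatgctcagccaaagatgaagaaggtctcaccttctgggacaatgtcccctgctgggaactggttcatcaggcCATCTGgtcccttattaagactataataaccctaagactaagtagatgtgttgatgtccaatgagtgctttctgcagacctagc
Iapp: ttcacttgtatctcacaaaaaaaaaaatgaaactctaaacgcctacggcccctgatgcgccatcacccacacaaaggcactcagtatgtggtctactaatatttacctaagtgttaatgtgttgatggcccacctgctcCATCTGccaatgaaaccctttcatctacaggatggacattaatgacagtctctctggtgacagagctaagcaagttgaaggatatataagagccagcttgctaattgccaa
Gcg: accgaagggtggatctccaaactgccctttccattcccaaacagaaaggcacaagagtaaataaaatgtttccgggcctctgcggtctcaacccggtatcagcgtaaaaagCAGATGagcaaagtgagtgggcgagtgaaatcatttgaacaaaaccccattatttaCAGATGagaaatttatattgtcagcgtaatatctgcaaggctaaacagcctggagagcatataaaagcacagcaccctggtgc
Sst: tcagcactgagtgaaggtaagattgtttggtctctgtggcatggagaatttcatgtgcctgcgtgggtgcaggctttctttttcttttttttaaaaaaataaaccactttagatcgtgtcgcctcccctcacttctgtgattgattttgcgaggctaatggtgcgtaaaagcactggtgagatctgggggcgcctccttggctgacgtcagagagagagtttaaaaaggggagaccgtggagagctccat
Ppy: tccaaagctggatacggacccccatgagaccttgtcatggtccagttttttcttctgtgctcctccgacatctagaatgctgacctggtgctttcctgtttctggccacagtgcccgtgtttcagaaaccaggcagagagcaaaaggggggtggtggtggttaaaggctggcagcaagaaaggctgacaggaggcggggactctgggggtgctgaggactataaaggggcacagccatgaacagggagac
Counted on both strands, CATCTG occurred 1 time in Ins1, with its leftmost base at position -84 from the start, and 1 time in Iapp, at -111. It occurred 2 times in Gcg, at -139 and -83, and was not in the windows of Sst and Ppy. TAAT, also on both strands, occurred 3 times in Ins1, 5 in Iapp, 2 in Gcg, 1 in Sst and 0 in Ppy. The letters of CATCTG and TAAT cannot overlap. Of all 32851 promoter windows of that length, 14.4% held CATCTG and 1.32% held it 2 times or more. TAAT was in 54.9% of them, 2 times or more in 30.8% and 4 times or more in 9.62%. These matches describe the letters of the windows and were not tested against the levels.

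The cells expressed the beta cell markers, from Mafa at the low end to Ins2 at the high end. Pdx1, a homeodomain factor that binds the insulin promoter, was at 95.4, 113, 104 and 107 CPM. Nkx6-1, which maintains beta cell identity, was at 30.6, 34.9, 28.5 and 31.3 CPM. Neurod1, a basic helix-loop-helix activator of insulin transcription, was at 168, 175, 179 and 168 CPM. With Ins1, Ins2 and Iapp, all 6 markers used to check the label were expressed in every library, and the 3 factors had CVs of 6.86%, 8.44% and 3.16%. G6pc2, the islet glucose-6-phosphatase, was at 1171 ± 144 CPM, Slc30a8, the granule zinc transporter, at 576 ± 20.5 CPM, Slc2a2, the GLUT2 glucose transporter, at 270.3 ± 10.2 CPM, and Ucn3, a urocortin peptide of mature beta cells, at 199 ± 6.55 CPM. The incretin receptor Glp1r was at 84.1 ± 9.36 CPM. Mafa, an activator of insulin transcription in mature beta cells, was the lowest of the beta cell markers at 7.07, 8.24, 7.18 and 5.38 CPM, or 6.63 ± 1.08 TPM, against 127 ± 11.5 TPM for Pdx1.

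**Figure D2:**
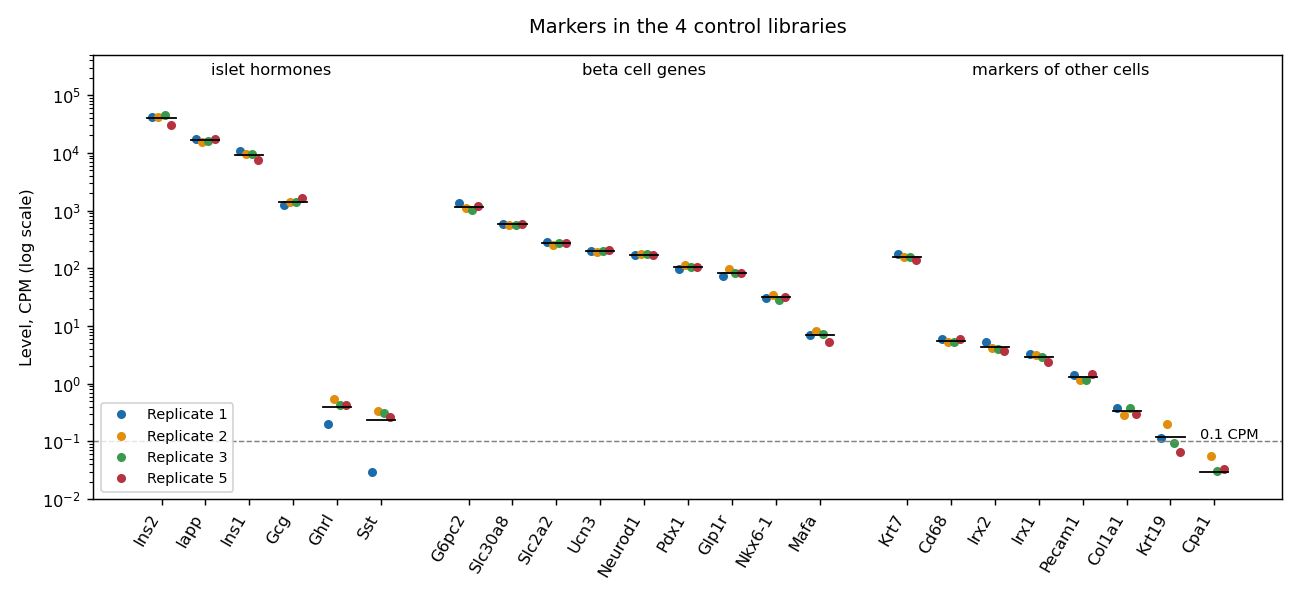
Level of each marker in CPM, on a log scale, in the 4 control libraries (points, coloured by replicate) with the mean as a black bar; a library with 0 counts has no point, as for Cpa1 in replicate 1. The beta cell genes lie between Mafa near 7 CPM and G6pc2 above 1000 CPM, while Pecam1, Col1a1, Krt19 and Cpa1 lie near or below 1 CPM.

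Almost every gene of the granule list was expressed. The list held 26 genes for granule cargo and its processing, of which 25 were expressed, 1 was low and none was silent, beside 54.2% expressed and 32.9% silent over all genes. Its members held 2.64% of the counts. Pcsk2, the convertase that cuts proinsulin and proglucagon, was at 2849, 2814, 2814 and 2798 CPM, with a CV of 0.758%. Pcsk1, the other proinsulin convertase, was at 546, 545, 544 and 606 CPM, highest in replicate 5. The length-scaled ratio of Pcsk2 to Pcsk1 was 5.38 ± 0.302. Cpe, the carboxypeptidase that trims the cut peptides, was at 2904, 2733, 2689 and 2705 CPM, with replicate 1 the highest. Among the granins, Scg2 was at 4783, 4424, 4509 and 4949.7 CPM and Chgb at 3573, 3376, 3143 and 3483 CPM. Chga was at 3796, 3441, 3485 and 2815 CPM, lowest in replicate 5, where Scg2 was highest. Ptprn, the granule membrane protein IA-2, was at 1198 ± 19.8 CPM, its relative Ptprn2 at 594 ± 39.2 CPM, the granin Scg3 at 813 ± 23.2 CPM, the Pcsk2 chaperone Scg5 at 482 ± 47.9 CPM and the amidating enzyme Pam at 379.9 ± 22.1 CPM. Pcsk1n, an inhibitor of Pcsk1, was at 7.51 ± 1.29 CPM. The vesicular monoamine transporter Slc18a1 was at 21.7 ± 0.793 CPM and its relative Slc18a2, the only member in the low band, at 0.459 ± 0.122 CPM. In 16 of the 24 members at 10 CPM or more the highest value was in replicate 1, as it was in 2215 of all 9268 genes at that level.

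The machinery that moves and fuses granules was expressed with neuronal members included. Of 63 exocytosis genes, 55 were expressed, 6 were low and 2, Cadps2 and Cplx4, were silent, which is 3.17% silent beside 32.9% of all genes. Without replicate 3 the silent count was 1. Members with many counts included Syt13, an atypical synaptotagmin, at 941 ± 51.1 CPM, the synaptic vesicle protein Syp at 909 ± 62.6 CPM, Syt4 at 526 ± 47.2 CPM, the complexin Cplx2 at 474 ± 42.4 CPM and the plasma membrane SNARE Snap25 at 415 ± 37.3 CPM. Syp overlaps another gene model on the opposite strand, so its count is uncertain if strand was not used. Syt7, a calcium sensor for insulin release, was at 292, 311, 294 and 289 CPM. Its values lay within a CV of 3.41%. Rab27a, which docks granules, was at 289 ± 6.32 CPM, while Rab27b was in the low band at 0.332 ± 0.0855 CPM. The vesicle SNARE Vamp2 was at 179.8 ± 9.94 CPM and the syntaxin Stx1a at 17.8 ± 1.22 CPM. The summed level of the list was 7714, 7568, 7715 and 7649 CPM, nearly the same in each library.

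All 38 genes of the secretory pathway list were expressed, beside 54.2% of all genes. At 10 CPM or more were 37 of them, beside 40.1% of all genes. The listed genes cover translocation into the endoplasmic reticulum, folding and the unfolded protein response, and held 2.02% of the counts. Hspa5, the main lumenal chaperone BiP, was at 2178, 2035, 2048 and 1990.3 CPM. Calr, a lectin chaperone, was at 1926, 1781, 1784 and 1799 CPM, and its membrane-bound relative Canx at 1792, 1644, 1744 and 1810.5 CPM. Hsp90b1, which overlaps another gene on the opposite strand, was at 3591, 2743, 3694 and 3066 CPM, highest in replicate 3 and lowest in replicate 2. Of the response sensors, Ern1 was at 188, Atf6 at 188 and Eif2ak3 at 109 CPM, and their target factors Xbp1 and Atf4 at 195 and 179 CPM. The stress-induced genes Ddit3 (33.5 CPM) and Trib3 (6.96 CPM) were expressed too. For 27 of the 37 genes at 10 CPM or more, the highest library was replicate 1, beside 2215 of all 9268 genes at that level.

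Potassium channel genes included both subunits of the ATP-sensitive channel of beta cells. Of 69 potassium channel genes, 32 (46.4%) were expressed, 20 were low and 17 (24.6%) were silent, 5 of them with 0 counts, beside 54.2% expressed and 32.9% silent over all genes. Abcc8, the sulfonylurea receptor subunit of the ATP-sensitive channel, was at 599.7, 622, 562 and 566 CPM. Kcnj11, its Kir6.2 pore subunit, was at 204, 209, 223 and 203 CPM. Both were steady across libraries, and their length-scaled ratio was 1.81 ± 0.131. Kcnh6, an ether-a-go-go related channel, was at 125 ± 6.55 CPM, the calcium-activated Kcnma1 at 62.1 ± 0.675 CPM and Kcnh1 at 42.8 ± 0.515 CPM. Of the alternative ATP-sensitive subunits, Abcc9 was just inside the expressed band at 1.296 CPM and Kcnj8 was silent at 0.0752 CPM. Kcnk16, a background potassium channel of islets, was at 20.5, 14.4, 17.6 and 11.6 CPM, highest in replicate 1 and lowest in replicate 5, and with a CV of 24.1% was the only member at 10 CPM or more over 20%. No counts were found for Kcna5, Kcne3, Kcng1, Kcng2 and Kcns1.

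Of 40 voltage-gated calcium and sodium channel genes, 28 (70.0%) were expressed, 5 were low and 7 (17.5%) were silent, beside the same 54.2% and 32.9% over all genes. Cacna1c, the pore of the L-type channel Cav1.2, was at 105, 129, 120.1 and 123 CPM. Cacna1d, the pore of Cav1.3, was at 41.5, 46.2, 44.2 and 48.1 CPM. In both, replicate 1 was the lowest. Length-scaled, Cacna1c was at 20.5 ± 2.19 TPM and Cacna1d at 13.1 ± 1.197 TPM. The accessory subunit Cacna2d1 was at 136 ± 11.4 CPM, the P/Q-type pore Cacna1a at 23.3 ± 3.57 CPM, the N-type pore Cacna1b at 17.9 ± 1.75 CPM and the R-type pore Cacna1e at 1.06 ± 0.164 CPM. Among sodium channels, Scn8a was at 48.3 ± 1.83 CPM, Scn1a at 18.4 ± 1.63 CPM and Scn9a at 9.82 ± 0.904 CPM, while Scn4b, Scn7a, Scn10a and Scn11a were silent. The calcium channel subunits Cacng1 and Cacng3 were silent too. Of 47 TRP, HCN, chloride, purinergic and store channel genes, 28 (59.6%) were expressed and 7 (14.9%) silent. Clcn3, a chloride transporter of granules and endosomes, was at 264 ± 12.5 CPM, Trpm7 at 123 ± 10.2 CPM, and Trpm5, a calcium-activated cation channel of islets, at 131, 119, 124 and 98.6 CPM. The store sensor Stim1 was at 77.4 ± 4.54 CPM, while its pore partner Orai1 was at 1.64 ± 0.263 CPM. Cftr (0.0523 CPM), Ano1 (0.0236 CPM) and Trpv6 (0 counts) were silent.

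G protein-coupled receptors were expressed in a smaller share, and silent in a somewhat larger share, than all genes. Of 99 G protein-coupled receptor genes for hormones, transmitters and nutrients, 39 (39.4%) were expressed, 21 were low and 39 (39.4%) were silent, 18 with 0 counts, beside 54.2% expressed and 32.9% silent over all genes. The oxytocin receptor Oxtr was at 385, 394, 369 and 417 CPM. The adhesion receptor Gpr56 was at 184, 165, 165 and 169.7 CPM, the somatostatin receptor Sstr3 at 168, 147, 152 and 139.7 CPM and the short-chain fatty acid receptor Ffar2 at 151, 124, 126 and 114 CPM. In the last 3, replicate 1 was the highest library. Vipr1, a receptor of vasoactive intestinal peptide, was at 98.1 ± 6.92 CPM, and the incretin receptors Glp1r and Gipr were at 74.3, 96.8, 83.0 and 82.5 CPM and 66.5, 53.8, 59.6 and 43.0 CPM. Gipr was lowest in replicate 5 and Glp1r in replicate 1. The fatty acid receptor Ffar1 was at 43.7 ± 4.67 CPM and the adrenergic receptor Adra2a, which restrains insulin release, at 51.7 ± 3.31 CPM. The glucagon receptor Gcgr had 3 counts in all, so it was silent in cells in which Gcg was among the highest mRNAs. The adrenergic receptor genes Adrb1 and Adrb3 had 0 counts. Of the other somatostatin receptors, Sstr1 was at 1.49 CPM, Sstr5 at 0.994 CPM, Sstr2 at 0.162 CPM and Sstr4 at 0 counts. Of the muscarinic receptors, Chrm3, the main form of beta cells, was at 9.86 and Chrm4 at 6.18 CPM, while Chrm2 and Chrm5 had 0 counts.

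Of 45 single-pass receptors, 33 (73.3%) were expressed, 7 were low and 5 (11.1%) were silent, beside 54.2% and 32.9% of all genes. Il1r1, the receptor of interleukin 1, was at 1203, 1168, 1075 and 1153 CPM. Ntrk2, the receptor of brain-derived neurotrophic factor, was at 548, 552, 538 and 591 CPM. Their CVs were 4.71% and 4.22%. The cytokine receptor subunit Il6st was at 329 ± 16.8 CPM, the prolactin receptor Prlr at 349, 273, 289.7 and 331 CPM, the IGF receptors Igf1r and Igf2r at 252 ± 7.47 CPM and 234 ± 12.97 CPM, and the insulin receptor Insr at 55.8 ± 2.43 CPM. Prlr was highest in replicate 1 and lowest in replicate 2. The silent members were Flt1, Kdr, Pdgfra, Pdgfrb and Tgfbr2, and Tgfbr2 had a level of 0.00777 CPM, while Tgfbr1 was at 98.1 ± 7.81 CPM.

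**Figure D3:**
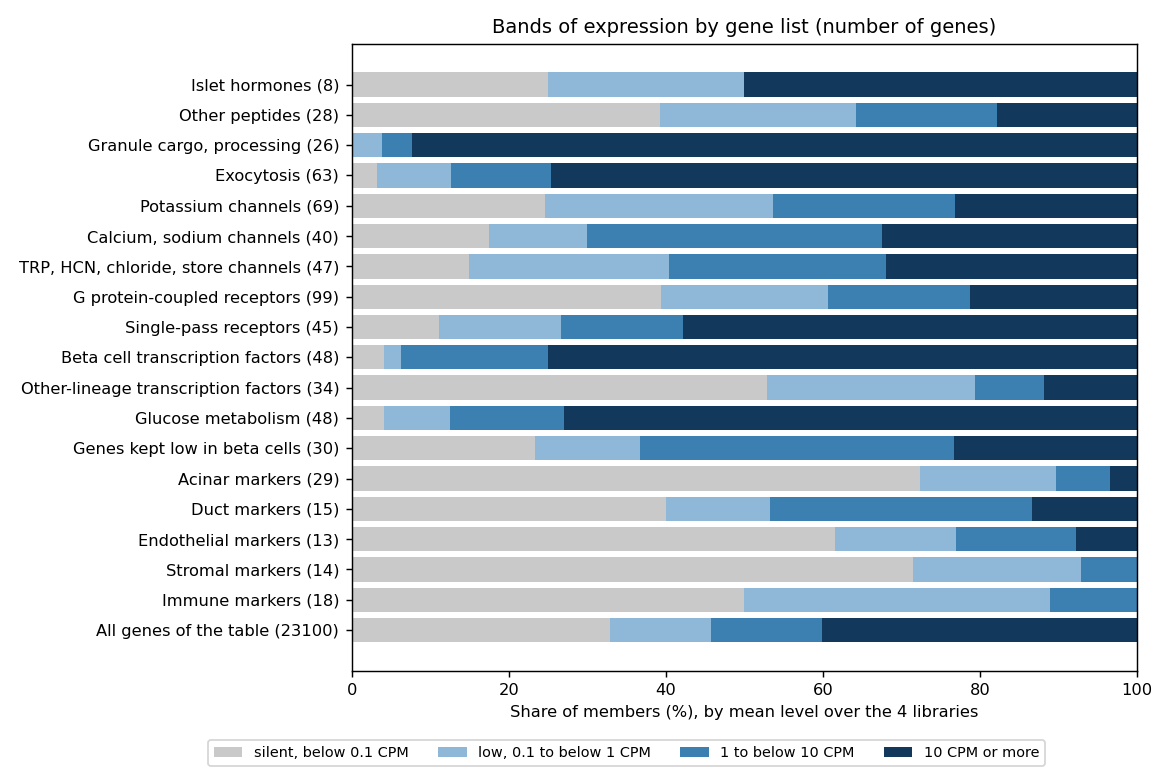
Share of the members of each gene list, in percent, whose mean level over the 4 libraries was silent, low, from 1 to below 10 CPM, or 10 CPM and more; the number of genes is in parentheses and the lowest bar holds all genes of the table. Granule, exocytosis, glucose metabolism and beta cell factor lists are nearly all expressed, while acinar, stromal and endothelial markers are mostly silent.

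Transcription factors of the beta cell were nearly all on, and most of those of other lineages were silent or low. Of 48 beta cell factors, 45 (93.8%) were expressed, 1 was low and 2 (4.17%) were silent, beside 54.2% and 32.9% of all genes. Etv1, an ETS factor, was at 400.0, 421, 422 and 499.8 CPM, highest in replicate 5. Pax6, a paired homeodomain factor of all islet cells, was at 366, 363, 359 and 333 CPM, lowest in replicate 5. Tshz1, a zinc finger factor, was at 309 ± 11.6 CPM, Mlxipl, the glucose-responsive ChREBP, at 227 ± 25.6 CPM, the zinc finger factor Myt1 at 212 ± 23.0 CPM and Isl1, a LIM homeodomain factor, at 153 ± 4.42 CPM. The nuclear receptor Hnf4a was at 15.8 ± 0.334 CPM, and Nkx2-2, Foxa2 and Rfx6 were at 36.4 ± 2.42 CPM, 35.4 ± 2.66 CPM and 43.6 ± 2.40 CPM. The silent members were Nfatc1 (0.0676 CPM) and the Wnt pathway effector Tcf7l2, for which 1 count was found in all, in replicate 5. The summed level of the list was 3410, 3540, 3531 and 3527 CPM, lowest in replicate 1. Of 34 factors of other lineages, 18 (52.9%) were silent, 9 low and 7 (20.6%) expressed, beside 32.9% silent, 12.9% low and 54.2% expressed over all genes. The 7 were Onecut2 (319 ± 25.3 CPM), Pax4 (17.3 ± 0.570 CPM), Hes1 (12.5 ± 1.05 CPM), the intestinal factor Cdx2 (12.2 ± 0.880 CPM), Irx2 (4.26 ± 0.722 CPM), the neuronal repressor Rest (2.99 ± 0.680 CPM) and Irx1 (2.94 ± 0.396 CPM). The endocrine progenitor factor Neurog3 and the acinar factor Ptf1a had 0 counts, and Sox9, of ducts and progenitors, was at 0.0300 CPM.

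Genes of glucose use were nearly all expressed. Of 48, 42 (87.5%) were expressed, 4 were low and 2 (4.17%), Hk3 and G6pc, were silent, beside 54.2% and 32.9% of all genes. Slc2a2 was at 283, 258, 271 and 269 CPM, with no library far from the others. Hk1, the low-Km hexokinase, was at 92.9, 80.5, 76.0 and 93.6 CPM, lowest in replicate 3. The mitochondrial glycerol phosphate dehydrogenase Gpd2 was at 379 ± 32.3 CPM, pyruvate carboxylase Pcx at 128 ± 10.7 CPM and glutamate dehydrogenase Glud1 at 114 ± 4.76 CPM. Slc2a1, the GLUT1 transporter, was at 48.2, 33.2, 31.8 and 14.6 CPM, and the length-scaled ratio of Slc2a2 to Slc2a1 ranged from 3.43 to 10.8 between libraries.

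Genes that mature beta cells keep low ranged from silent to over 200 CPM. Of 30 such genes, 19 (63.3%) were expressed, 4 were low and 7 (23.3%) were silent, beside 54.2% and 32.9% of all genes. At 10 CPM or more were 7 of the 30, beside 40.1% of all genes. Ldha, lactate dehydrogenase A, was at 426, 232, 191 and 92.2 CPM, highest in replicate 1 and lowest in replicate 5, with a CV of 59.5%. Slc16a1, the lactate and pyruvate transporter MCT1, was at 27.6, 24.3, 22.5 and 23.0 CPM. Oat, ornithine aminotransferase, was at 53.5 ± 4.61 CPM, Maf at 23.5 ± 1.83 CPM and Cxcl12 at 13.6 ± 1.85 CPM. The silent members were Arhgdib, Cat, Fcgrt, Itih5, Mgst1, Pdgfra and Yap1. Cat, the catalase gene, was at 0.0894 CPM and Itih5 at 0.0918 CPM, both just below the silent threshold, and Mgst1, a glutathione transferase, had 1 count.

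A few other peptide genes were well expressed, among them Igf2, Npy, Ucn3 and Cck. Of 28, 10 (35.7%) were expressed, 7 were low and 11 (39.3%) were silent, beside 54.2% and 32.9% of all genes. Igf2, the imprinted fetal growth factor, was at 1440.5, 1542, 1488 and 1478 CPM, although its exons are shared in large part with another gene model on the same strand, so that its count is uncertain. Npy, neuropeptide Y, was at 704, 823, 908 and 622 CPM, highest in replicate 3 and lowest in replicate 5. The gut peptides Cck and Sct were at 169, 176, 177 and 178 CPM and 47.8, 48.3, 54.98 and 47.1 CPM. Sct stood higher in replicate 3 than in the other 3 libraries. Gip, Crh and Igf1 had 0 counts.

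Acinar, endothelial, stromal and immune markers were mostly silent or low, and 7 of 15 duct markers were expressed. The shares below stand beside 32.9% silent and 54.2% expressed over all genes. Of 29 acinar genes, 21 (72.4%) were silent and 3 expressed, and their summed level was 22.5, 19.8, 21.4 and 17.2 CPM. Prss1 and Cela3b had 0 counts and Cpa1 was at 0.0300 CPM. Of 13 endothelial genes, 8 (61.5%) were silent, Cdh5 and Cldn5 had 0 counts, and the sum of 16.8 to 20.7 CPM came mostly from the junction protein gene Esam at 12.8 ± 1.39 CPM. Of 14 stromal genes, 10 (71.4%) were silent and the sum was 2.91 to 3.54 CPM. Of 18 immune genes, 9 (50.0%) were silent and the sum was 10.6 to 12.3 CPM, with the lysosomal gene Cd68 at 5.94, 5.19, 5.37 and 5.87 CPM and the leukocyte gene Ptprc at 0.204 CPM. Of 15 duct genes, 7 (46.7%) were expressed, 2 low and 6 (40%) silent. Their sum was 213 to 259 CPM, most of it from the keratin gene Krt7 at 179, 156, 159 and 141 CPM and the adhesion gene Epcam at 54.2 ± 2.49 CPM, while Krt19 was at 0.118 CPM and Spp1 at 5.66 CPM.

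Of the alpha, delta and PP cell list, 9 of 20 genes (45.0%) were expressed, 7 were low and 4 (20%) were silent, or 2 without replicate 1, beside 54.2% and 32.9% of all genes. Its sum was 3828, 3596, 3574 and 4046 CPM, nearly all of it from Gcg, Ttr, Tmem27, Slc7a2 and Gc. Ttr, transthyretin, was at 1654, 1380.4, 1343 and 1478 CPM and Gc, the vitamin D binding protein, at 194, 118, 131 and 141 CPM, both highest in replicate 1, where Gcg was lowest. The libraries are of whole cultures, so fewer cells of a type and less RNA per cell cannot be told apart, and whether Gcg came from all the cells or from some of them was not tested.

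Of 29 neural markers, 23 (79.3%) were expressed, beside 54.2% of all genes, 4 were low, and Gfap and Sox10, both of glia, were silent. Nefm, a neurofilament gene, was at 1687, 1399, 1594 and 1651 CPM, and Nefl, a gene that it overlaps on the opposite strand, at 304, 302, 322 and 328 CPM. The dopa decarboxylase Ddc was at 316 ± 19.3 CPM, the adhesion gene Ncam1 at 302 ± 17.1 CPM, the tyrosine hydroxylase Th at 31.0 ± 4.10 CPM, the glutamate decarboxylase Gad2 at 28.8 ± 3.38 CPM and the serotonin enzymes Tph1 and Tph2 at 6.22 ± 0.536 CPM and 7.08 ± 1.05 CPM. The sum over the list was 5116, 4691, 5090 and 5095 CPM, lowest in replicate 2.

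Cell cycle genes were nearly all on, with 30 of 33 (90.9%) expressed, beside 54.2% of all genes, 2 low and 1 silent. Top2a, topoisomerase II, was at 1259, 1258, 1249 and 1399 CPM, highest in replicate 5. Mki67, the proliferation antigen Ki-67, was at 1158, 1016, 1193 and 1395 CPM, also highest in replicate 5. Of the D-type cyclins, Ccnd2 was at 728, 689, 753 and 784 CPM, Ccnd3 at 11.3 ± 1.26 CPM, and Ccnd1 was the silent member with 13 counts, at 0.0873, 0.0564, 0.249 and 0 CPM. Ccnd1 lay just inside the silent band on average, and was below 0.1 CPM in 3 of 4 libraries. Without replicate 1, 2 or 5 its mean left that band, and the count of silent members was 0. Cdk4 was at 210.0 ± 13.3 CPM and Cdk6 at 0.193 ± 0.103 CPM. The inhibitors Cdkn1b, Cdkn2c and Cdkn2a were at 187 ± 12.7 CPM, 206 ± 4.33 CPM and 47.2 ± 6.67 CPM.

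Zac1 is encoded by Plagl1, and its endogenous level in these control cells was 78.0, 67.2, 78.6 and 85.2 CPM. Its relatives Plagl2 and Plag1 were at 20.6 ± 0.862 CPM and 0.999 ± 0.295 CPM. Among imprinted genes, Peg3 was at 1416, 1491, 1589.6 and 1712 CPM, Meg3 at 607 ± 17.6 CPM and Dlk1 at 22.6 ± 2.04 CPM, whereas H19, an untranslated RNA next to Igf2, had 0 counts in every library.

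Gene families grouped by symbol, chosen with the data in hand, differed in their silent share. Over all genes, 32.9% were silent and 54.2% expressed. Of 1101 olfactory receptor genes, 1078 (97.9%) were silent and 4 expressed, among them Olfr613 at 23.5 ± 1.42 CPM. Of 325 vomeronasal receptor genes, 315 (96.9%) were silent, and 5 were expressed. All 35 bitter taste receptor genes were silent, as were 37 of 40 Hox genes and 39 of 51 keratins, while Krt7 and Krt8 (124 ± 4.26 CPM) were expressed. In contrast, 39 of 40 proteasome subunit genes and 76 of 76 mitochondrial ribosomal protein genes were expressed. Of 366 genes with a Zfp symbol, zinc finger proteins, 326 were expressed and 21 silent. Of 354 solute carriers, 212 (59.9%) were expressed, among them Slc7a14 at 714 ± 46.0 CPM, and 81 (22.9%) were silent.

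The libraries differed between themselves by more than counting gives. The biological coefficient of variation estimated by edgeR over all kept genes, which is the SD between libraries beyond counting as a share of the level, was 7.51%. Among the 9268 genes at 10 CPM or more, the median CV was 5.68%, against 2.50% from counting alone. It was 5.01% for the 2326 genes from 100 to 1000 CPM, for which counting gives 1.33%. At 0.1 to 1 CPM the median CV of 32.5% stood beside 31.4% from counting. A CV over 20% was found for 112 genes (1.21%) at 10 CPM or more, and over 10% for 1297 (13.99%). The count of 112 rested on the libraries used: it was 61 without replicate 5, 135 without replicate 1 or replicate 3, and 190 without replicate 2. Among the steadiest were Map2k5 (21.3, 21.3, 21.4 and 21.3 CPM) and Capn10 (23.7, 23.8, 23.9 and 23.8 CPM), a kinase and a protease gene. Their CVs, 0.197% and 0.251%, were below what counting alone gives, as the smallest of 9268 values can be.

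**Figure D4:**
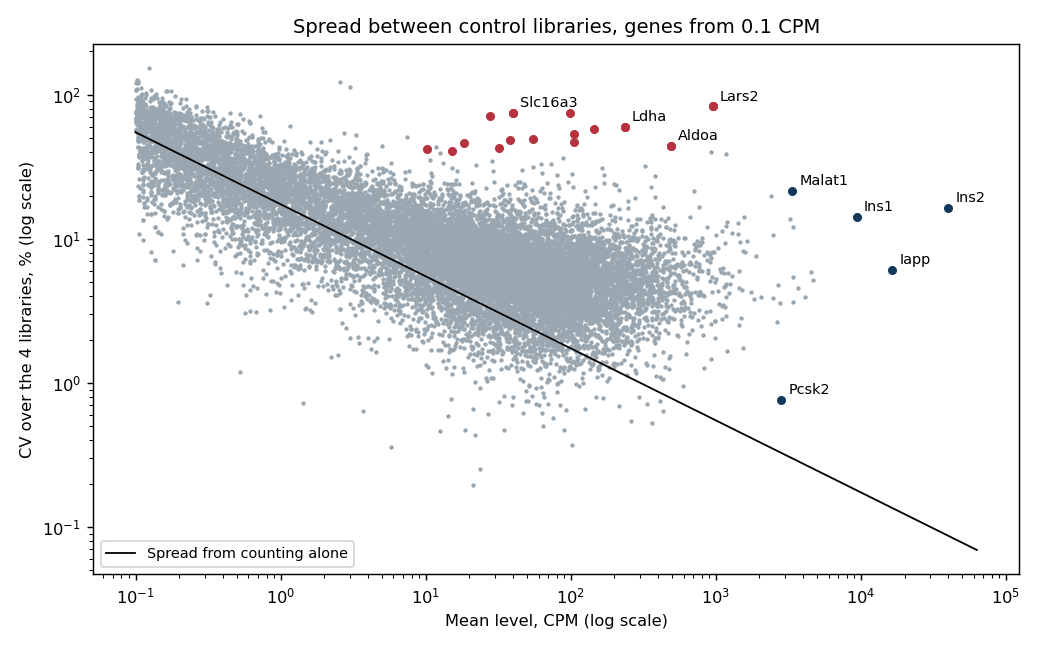
CV over the 4 control libraries in percent against mean CPM, both on log scales, for genes from 0.1 CPM, with the spread from counting alone as a line. Red points are the 15 genes with the largest CV among those of at least 10 CPM, up to Lars2 at 83.0%, and the dark points are abundant genes, with Pcsk2 at 0.758% the steadiest of them.

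The genes with the largest spread were ordered the same way across libraries in most cases. Lars2, a mitochondrial leucyl-tRNA synthetase, was at 861, 2084, 546 and 310.5 CPM, a CV of 83.0%, highest in replicate 2 and lowest in replicate 5. Tmem38b, an endoplasmic reticulum potassium channel subunit, was at 73.1, 206, 74.1 and 39.96 CPM, also highest in replicate 2. The other 13 of the 15 largest were highest in replicate 1 and lowest in replicate 5. Slc16a3, the lactate exporter MCT4, was at 80.5, 36.5, 33.7 and 8.55 CPM. Ak4, a mitochondrial adenylate kinase, was at 54.8, 28.4, 20.8 and 7.37 CPM. Pdk1, which inhibits pyruvate dehydrogenase, was at 182, 101, 87.6 and 48.7 CPM, and Pfkfb3, an activator of glycolysis, at 93.2, 52.0, 46.7 and 29.1 CPM. In each of these the values of replicates 2 and 3 lay between those of replicates 1 and 5. Bnip3, a mitophagy receptor, was at 257, 144, 123 and 54.7 CPM, Pfkl, the liver-type phosphofructokinase, at 172, 100.4, 101 and 49.9 CPM, and Aldoa, an aldolase, at 801, 445, 436 and 290.3 CPM. The rest were Ldha, Slc2a1, Fam162a, Kbtbd11, Ankrd37 and Fhad1, with CVs from 40.5% to 59.5%. Bnip3, Fam162a, Kbtbd11 and Ankrd37 overlap other gene models on the opposite strand, so their counts are less certain.

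**Figure D5:**
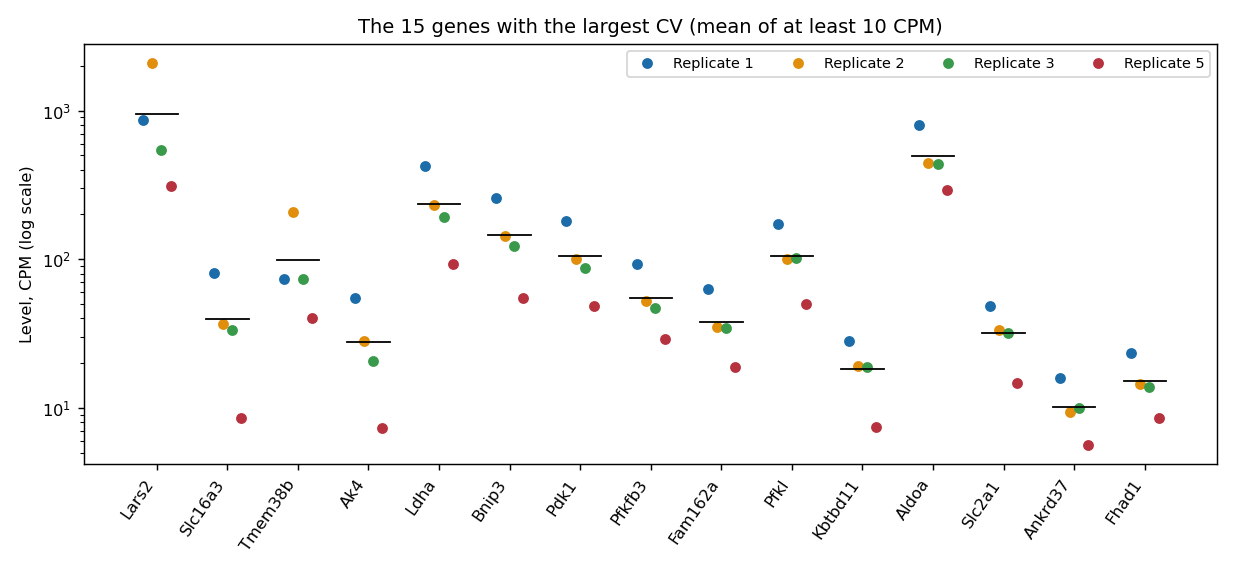
Level in CPM, on a log scale, of the 15 genes with the largest CV among genes of at least 10 CPM, in each control library (points, coloured by replicate) with the mean as a black bar. For 13 of them replicate 1 is highest and replicate 5 lowest; Lars2 and Tmem38b are highest in replicate 2.

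Lists of glycolytic enzymes and of known hypoxia response genes were written after those values had been seen, so their counts describe the pattern and are no separate support for it. The 15 glycolytic enzyme genes summed to 10135, 6826, 6747 and 5075 CPM. Of the 14 at 10 CPM or more, 13 were highest in replicate 1, 13 were lowest in replicate 5 and 10 had a CV over 20%. Of all 9268 genes at that level, 2215 were highest in replicate 1, 2748 were lowest in replicate 5 and 112 (1.21%) had a CV over 20%. Their median CV was 30.4%. Pgk1, phosphoglycerate kinase, was at 1843, 1092, 975 and 815 CPM, and Tpi1, triose phosphate isomerase, at 1437, 824, 912 and 540.0 CPM. Pfkm (6.72%), Hk1 (10.3%) and Eno2 (6.06%) had CVs below the others of this list and above the median of 5.68% for all genes at 10 CPM or more. Eno1 was at 0.381 ± 0.157 CPM, a level that is uncertain because the table also lists a near-identical copy, and Gapdh, with its many processed copies, at 914, 638, 715 and 559.8 CPM. The 33 hypoxia response genes summed to 2789, 2041, 1933 and 1429 CPM, and of the 26 at 10 CPM or more 23 were highest in replicate 1, 23 lowest in replicate 5 and 21 had a CV over 20%, to be read beside the same counts over all genes. Hif1a and Arnt encode the factor that drives this response. Their mRNA levels were 105, 108, 99.8 and 112 CPM and 112, 108, 111 and 113 CPM, both highest in replicate 5. The activity of that factor and the cause of the pattern were not tested.

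Library pairs were alike overall and least alike for replicates 1 and 5. Over the 9268 genes, the Pearson correlation of log2 CPM ran from 0.991 between replicates 1 and 5 to 0.996 between replicates 2 and 3, a description across genes, which are not independent. The genes more than 1.5-fold apart numbered 107 between replicates 1 and 5, 103 between 3 and 5, 45 between 2 and 5, 31 between 1 and 3, 29 between 1 and 2 and 7 between 2 and 3. No pair differed by as little as counting noise, with a chi-square of 10.5 to 23.8 per degree of freedom, so the 4 were counted as separate libraries. The deviation of a gene in 1 library from the other 3 moved with exonic length: over 9236 genes with a length, the Spearman correlation was -0.34, 0.07, -0.20 and 0.40. In replicate 5 the 316 genes under 1000 bases had a median log2 deviation of -0.14 and the 2671 of 5000 bases or more one of 0.07. The part of this in the low Ins1, Ins2 and Npy of replicate 5 was not tested. Of 73 ribosomal protein genes at 10 CPM or more, 47 were highest in replicate 3 and 54 lowest in replicate 5, beside 2086 and 2748 of all 9268 genes. Their median CV was 6.72%.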

How the data were processed

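RNA-seq counts per gene were analysed for the 4 control libraries of Min6 cells. The deposited table holds raw counts; per the submitters' processing notes they come from HTSeq 0.6.1p1 after alignment to mm9 with TopHat2 2.1.1 (Bowtie2 2.2.8), with bcl2fastq 2.17 and FastQC also named, and the strand setting is not given in the sources used here. All 8 columns matched a sample. CPM was computed on TMM-scaled library totals (edgeR 4.0.16 in R 4.3.3, genes kept by filterByExpr, intercept only). Length-scaled levels used the merged exonic length of GENCODE M21 (GRCm38), matched for 22642 genes (98.0%), which may differ from the mm9 gene models counted. Spread was taken as edgeR's dispersion and as the CV per gene, and the computation was tested on simulated data. With 1 group there was no test between groups and no p-value. Silent was set below 0.1 CPM, expressed from 1 CPM, and CVs were read from 10 CPM.

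The members and the 24 gene lists (824 of 825 entries matched) were chosen with earlier results of these data known; 2 lists were added after values were seen. Named genes were the 25 with the highest mean CPM, the markers and hormones, the 6 highest members and the silent members (up to 15, otherwise 8) of each list, every member at 10 CPM or more in lists of up to 15, and the 15 largest and 10 smallest CVs, unnamed gene models passed over, with the 5 genes farthest from the other libraries in each; other members named were chosen after their values were seen. Alternatives were plain library totals, DESeq2 1.42.0 size factors, other thresholds and filters, per-length ranking and leaving out each library. Some members are not reported here.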

Additional observations from a re-analysis of the deposited data

Results flagged for a closer look

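In 7 of the 192 named genes and list sums examined, 1 library stood far from the other 3, with a gap to its neighbour that was a larger part of the whole range than Dixon's critical value for 4 samples. Chance flags about 1 in 20 such groups. Calr was highest in replicate 1 at 1926 CPM, Plagl2 in replicate 2 at 21.9 CPM, Sct in replicate 3 at 54.98 CPM, and Pax4 and Top2a in replicate 5 at 18.1 and 1399 CPM. The summed level of the beta cell transcription factors was lowest in replicate 1 at 3410 CPM, and that of the neural markers lowest in replicate 2 at 4691 CPM. Over all 9268 genes at 10 CPM or more, 497 (5.36%) had such a library, and in 216 of them it was replicate 5.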

How the results depend on the processing

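No paired analysis was possible because the values come from 1 group and from no test. Scaling by library totals alone or by DESeq2 size factors left the number of genes silent in the control libraries (7594) and the number of genes expressed in the control libraries (12529) unchanged. Leaving out each library moved the silent count between 7547 and 7616. The 917 genes that hold 50% of counts were found from pooled raw counts, so scaling could not change that number. The silent count was 6758 when every library had to be below 0.1 CPM and 9050 below 0.3 CPM; without Ins1 and Ins2, 1038 genes held 50% of the counts. Ranking per unit of exonic length kept 13 of the 25 most abundant genes. With silent set below 0.3 CPM, silent members numbered 10 single-pass receptors, 10 alpha, delta and PP markers, 4 each of the exocytosis, glucose and neural lists, 3 cell cycle and 2 hypoxia genes. They numbered 5 in a list of 20 genes that mixes markers of mature and of immature beta cells. The 3 of that list below 0.1 CPM were Neurog3, Pyy and Sox9. Leaving out 1 library gave 1 to 2 silent exocytosis genes, 2 to 3 alpha, delta and PP markers, and 0 to 1 cell cycle and hypoxia genes. The spread estimated by edgeR (0.0751 as a fraction) ran from 0.0616 without replicate 5 to 0.0841 without replicate 2. Of the levels of single genes, 8 values under an alternative moved by more than the SD and 1834 did not. Most of these values come from leaving out a library. That step by itself cannot move a mean of 4 libraries by more than their SD, so the 1834 say little about it. The 8 came from leaving out replicate 1 or replicate 2 and belong to genes among the steadiest, such as Capn10, Map2k5, Msl2 and Srrm3. Depth limits the silent band: from 0.1 to 1 CPM the median CV was 32.5%, beside 31.4% from counting alone. The number of genes with a CV over 20% ran from 61 to 190.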
